A study of Mus musculus with 12 samples.

Results

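The 44 genes described here are those of T cells and of the intraepithelial lymphocytes of the gut: the chains of the T cell receptor and of CD3, the coreceptors, the kinases and adaptors next to the receptor, granule proteases, chemokines, natural killer (NK) type receptors, homing receptors and a few transcription factors. They were taken by symbol from a table of 55891 genes, and 44 of 44 were found. RNA came from mucosal scrapings of the ileum, the far end of the small bowel, of 12 mice at baseline, with 1 library per mouse. The labels give 6 mice as Erbb3-FF and 6 as ERBB3-dIE. Erbb3 encodes a neuregulin receptor of the ErbB family. Strain, age and sex, the promoter that drives any recombinase and the altered exons are not stated in the labels. Erbb3-FF mice 1 and 2 and ERBB3-dIE mice 1, 2 and 3 were of litter B. Erbb3-FF mice 3 to 6 and ERBB3-dIE mice 4, 5 and 6 were of litter A. The series asks how this receptor bears on the intestinal barrier, and the comparison of genotypes shows which lymphocyte transcripts differed between the scraped tissues.

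Intraepithelial lymphocytes lie between the cells of the gut lining. In the mouse small intestine most of them are CD8+ T cells, with either the alpha beta or the gamma delta form of the T cell receptor, and many carry CD8 as a pair of alpha chains in place of the alpha and beta chains that conventional cytotoxic T cells use. They are held at the epithelium by the integrin that Itgae encodes, which binds E-cadherin, they respond to interleukin 15 shown to them by epithelial cells, and they store granzymes and the chemokine CCL5. T cells of the connective tissue beneath are more often CD4+, and lymphoid follicles add naive T cells and B cells.

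Promoter windows are shown for 3 granule genes, because their transcripts were among those with the largest differences and the windows hold letters that match factors of cytotoxic lymphocytes. They are the 250 bases before the transcript start in RefSeq, build GRCm38.p6, read 5′ to 3′ on the strand of the gene, and capitals mark matches. Gzma lies at chr13:113100982-113101231 on the minus strand, Gzmb at chr14:56262335-56262584 on the minus strand and Nkg7 at chr7:43436888-43437137 on the plus strand.
Gzma: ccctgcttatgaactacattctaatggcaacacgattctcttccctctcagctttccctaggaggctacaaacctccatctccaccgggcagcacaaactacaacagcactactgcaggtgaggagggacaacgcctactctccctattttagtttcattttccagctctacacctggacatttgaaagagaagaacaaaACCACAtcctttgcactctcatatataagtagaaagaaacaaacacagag
Gzmb: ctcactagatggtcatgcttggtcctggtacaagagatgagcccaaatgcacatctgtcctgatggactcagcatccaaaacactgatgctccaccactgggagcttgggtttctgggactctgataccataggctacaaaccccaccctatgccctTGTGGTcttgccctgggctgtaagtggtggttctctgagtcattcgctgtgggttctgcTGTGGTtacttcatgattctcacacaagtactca
Nkg7: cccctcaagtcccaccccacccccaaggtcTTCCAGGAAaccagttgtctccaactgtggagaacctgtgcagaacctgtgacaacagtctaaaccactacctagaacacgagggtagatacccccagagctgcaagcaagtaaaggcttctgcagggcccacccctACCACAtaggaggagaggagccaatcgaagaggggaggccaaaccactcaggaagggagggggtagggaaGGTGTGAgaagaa
The Gzma window holds 1 RUNX match, 50 to 45 bases before the start. The Gzmb window holds 2 RUNX matches, at 93 to 88 and at 34 to 29 bases before the start. The Nkg7 window holds a GAS match at 220 to 212, a RUNX match at 83 to 78 and a T-box match at 13 to 7 bases before the start. The RefSeq table matched 28 of the 44 members with 36 promoters, and the unmatched were Trac, Trbc1, Trbc2, Trdc, Cd8b1, Cd4, Cd2, Cd7, Thy1, Cd69, Skap1, Ccl5, Klrd1, Tyrobp, Itgae and Il2rb. Each motif was searched on both strands, and matches of different motifs could overlap, as they did in Cd3d. The letters TGTGGT, bound by RUNX factors, were held by 14 of the 36 windows and by 14.0% of 32851 windows of the same length in the table. For GGTGTGA, the letters of T-box factors such as the products of Tbx21 and Eomes, these values were 3 windows and 3.33% of all. For GGAAGT, read by ETS factors of lymphocytes, they were 14 windows and 19.7% of all. For the GAS letters TTCNNNGAA of STAT factors they were 4 windows and 7.02%. For the TATA box, searched as TATAAA, they were 2 windows and 12.4%. The Cd8a window, not shown, held none of these letters. The 3 windows shown were picked partly for their matches, so those matches are no result about the members. Of the 3 genes, only Gzma passed the genotype test given below. A match describes letters only, not a bound site.

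The values are TPM, which divide a gene's estimated reads by its length and scale each library to 1000000, so levels of different genes can be compared within a library, while how many reads a library held is not known. The members together took 197 to 438 TPM in Erbb3-FF mice and 294 to 915 TPM in ERBB3-dIE libraries. Gene-level Erbb3 was not lower in ERBB3-dIE mice (log2 difference 0.16, limma adjusted p = 0.403), so it does not check the labels. Some libraries stood apart. The 16 B cell genes listed for comparison summed to 492, 220.1 and 187 TPM in Erbb3-FF mice 1, 2 and 3 and to 10.4 to 38.9 TPM in the other 9 libraries. None of these genes was at 0 in all libraries, and Ms4a1 reached 22.3 TPM in Erbb3-FF mouse 1. The 10 genes of naive, central memory and follicular T cells summed to 65.1 TPM in that mouse and to 6.46 to 27.7 TPM in the other 11. Ribosomal sequence took 10.2% and 10.8% of the TPM of Erbb3-FF mice 5 and 6 and at most 1.62% elsewhere.

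T cell transcripts were present in every library, at modest levels. Trac, the constant part of the T cell receptor alpha chain, lay between 7.08 and 56.1 TPM, Cd3e between 4.63 and 17.2, Cd8a between 3.57 and 19.3 and Itgae between 1.78 and 7.91 TPM. Trdc, the delta chain constant gene, reached at most 1.59 TPM. Ccl5 and Gzma were the most abundant members in ERBB3-dIE mice. Of the 44 members, 34 reached 1 TPM in at least 6 libraries and were tested, and 10 did not (Trdc, Cd2, Cd69, Themis, Prf1, Fasl, Klrk1, Klre1, Tbx21 and Eomes). Several members are not specific to T cells: Ptprc (CD45) marks all white blood cells, and Tyrobp and Fcer1g are adaptors used by NK and myeloid cells as well.

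Between genotypes, 4 of the 34 tested members rose in ERBB3-dIE mice and 0 fell. The 4 were Cd7, Cd8a, Gzma and Ccl5. Over all 12605 tested genes 1.66% were called higher and 3.7% lower by the same rule, a limma adjusted p under 0.05 in a model with litter and genotype. At an unadjusted p under 0.05 the members numbered 16 higher and 0 lower, where the whole table had 8.71% higher and 13.1% lower. The fitted log2 difference was positive for 30 of 34 members, and for 49.9% of all tested genes. Its median was 0.52 over the members and −0.001 over all tested genes. The exceptions below 0 were Trbc1, Ptprc, Skap1 and Runx3. In tissue RNA, fewer cells of a type and less RNA per cell cannot be told apart, and this holds for every difference given here. The count of 4 depended on the libraries, as did the 209 genes called higher over the whole table. It was 0 without Erbb3-FF mice 5 and 6, where 83 genes of the whole table were called higher. With the mean log2 level of the B cell genes as a covariate it was 0, where 22 genes were. Without Erbb3-FF mice 1, 2 and 3 it was 1 (Tyrobp), where 14 genes were. In that last fit litter B holds no Erbb3-FF mouse and the genotype difference rests on litter A alone. With 1 library left out the count of members was 1 without Erbb3-FF mouse 1, 2 or 6 or ERBB3-dIE mouse 6, 2 without ERBB3-dIE mouse 3 or 4, and 9 without ERBB3-dIE mouse 2. Over the whole table, fits of this kind called from 95 genes higher (without ERBB3-dIE mouse 4) to 213 (without ERBB3-dIE mouse 2).

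**Figure D1:**
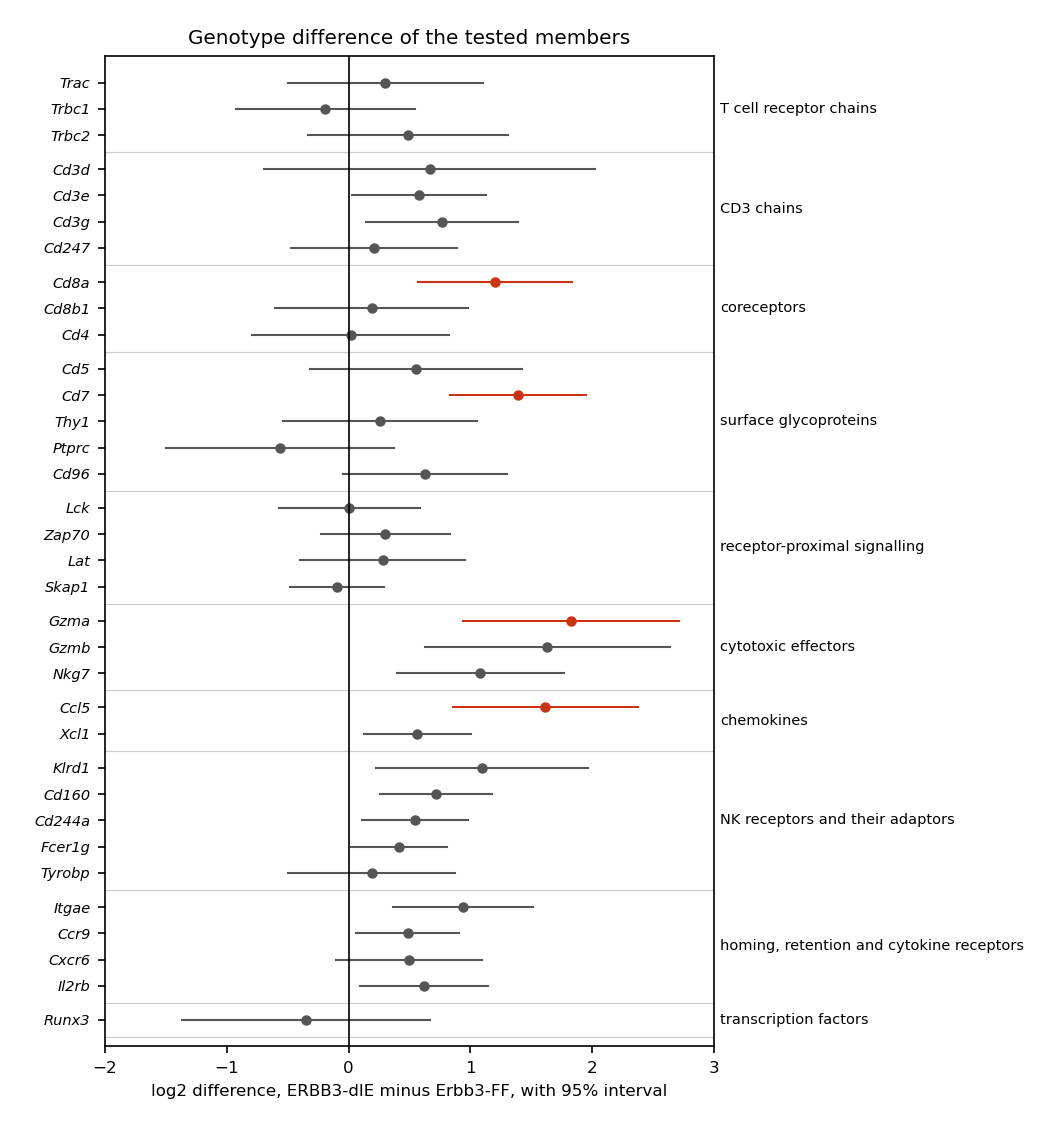
Log2 difference of log2(TPM + 0.5), ERBB3-dIE minus Erbb3-FF, for the 34 tested members with the 95% interval of the limma fit (x axis), grouped by role (y axis), with called members in red. Of the 34 points 30 lie right of 0, and Cd7, Cd8a, Gzma and Ccl5 are the called ones.

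The T cell receptor itself showed no call. Trac was 7.08 TPM at the lowest, 10.7 at the median and 56.1 at the highest in Erbb3-FF mice and 10.3 TPM at the lowest, 22.6 at the median and 30.5 at the highest in ERBB3-dIE mice. The ranges overlapped: Erbb3-FF mouse 1 stood above all other mice and Erbb3-FF mice 2 and 3 lay inside the ERBB3-dIE range, with 56.1 TPM in mouse 1 and 7.08 to 21.7 TPM in Erbb3-FF mice 2 to 6. The fitted difference was small beside its error (difference of 0.30 in log2, SE 0.36, limma adjusted p = 0.670). Trbc2, a beta chain constant gene, had the same pattern, with 47.3 TPM in Erbb3-FF mouse 1, 6.03 to 20.8 TPM in the other Erbb3-FF mice and 11.4 to 31.1 TPM in ERBB3-dIE mice (difference of 0.49 in log2, SE 0.37, limma adjusted p = 0.493). Its neighbour Trbc1 ran from 5.43 to 30.3 TPM in Erbb3-FF mice and 6.12 to 22.8 TPM in ERBB3-dIE mice (difference of −0.19 in log2, SE 0.34, limma adjusted p = 0.779). The near-identical Trbc1 and Trbc2 share reads, so the split between them is uncertain. Trdc, under the filter, was 0.763 ± 0.366 TPM in the Erbb3-FF group and 1.16 ± 0.407 TPM in the ERBB3-dIE group (SD, n = 6 each), and in a fit with no filter its difference was 0.39 (adjusted p = 0.563 by limma).

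Of the CD3 chains, which carry the receptor's signal into the cell, 0 of 4 were called. The 2 chains Cd3e and Cd3g were higher at an unadjusted p under 0.05, as were 8.71% of all tested genes. Cd3g was 6.21 TPM at the lowest, 8.70 at the median and 13.0 at the highest in Erbb3-FF mice and 9.44 TPM at the lowest, 14.6 at the median and 33.3 at the highest in ERBB3-dIE mice. ERBB3-dIE mice 1 and 3 held the 2 highest values, 29.2 and 33.3 TPM, and ERBB3-dIE mice 2, 4 and 5, with 10.5, 12.5 and 9.44 TPM, lay within the Erbb3-FF range. The difference was 0.77 (SE 0.29, limma adjusted p = 0.144). Cd3e was 4.63 TPM at the lowest, 6.15 at the median and 12.6 at the highest in Erbb3-FF and 7.14 TPM at the lowest, 11.3 at the median and 17.2 at the highest in ERBB3-dIE mice, with ranges that overlapped (difference of 0.58 in log2, SE 0.25, limma adjusted p = 0.205). Cd3d and Cd247 followed Trac in having their highest value in Erbb3-FF mouse 1, at 19.9 and 3.71 TPM. Their differences were 0.67 (SE 0.62, adjusted p = 0.575) and 0.21 (SE 0.31, adjusted p = 0.744). The CD3 chains did not share 1 order over the mice: Cd3d was 19.9 TPM in Erbb3-FF mouse 1 and 5.25 TPM in ERBB3-dIE mouse 1, while Cd3g was 13.0 and 29.2 TPM in the same mice.

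Among the coreceptors, Cd8a, the alpha chain of CD8, rose, while Cd8b1, the beta chain, and Cd4 did not pass the test. Cd8a (ENSMUSG00000053977) was 3.57 TPM at the lowest, 4.37 at the median and 6.16 at the highest in Erbb3-FF mice and 5.65 TPM at the lowest, 10.4 at the median and 19.3 at the highest in ERBB3-dIE mice. The ranges overlapped at 1 mouse of each genotype only: Erbb3-FF mouse 3 with 6.16 TPM lay above ERBB3-dIE mouse 2 with 5.65 TPM. The mean was 2.68-fold higher in ERBB3-dIE mice (4.49 ± 0.904 TPM in the Erbb3-FF group and 12.03 ± 5.80 TPM in the ERBB3-dIE group, SD, n = 6 each), with a log2 difference of 1.20 (SE 0.29, limma adjusted p = 0.0380). Cd8b1 was 0.791 TPM at the lowest, 1.35 at the median and 2.62 at the highest in Erbb3-FF and 1.02 TPM at the lowest, 1.37 at the median and 6.07 at the highest in ERBB3-dIE mice (difference of 0.19 in log2, SE 0.36, limma adjusted p = 0.798), the top value being ERBB3-dIE mouse 3. Cd4 was 0.363 to 7.04 TPM and 1.19 to 5.20 TPM (difference of 0.02 in log2, SE 0.37, limma adjusted p = 0.985), with the highest value of each genotype in mouse 1. The call of Cd8a was kept only in the fits without Erbb3-FF mouse 3 or ERBB3-dIE mouse 2 among the 12 fits that left out 1 library, with adjusted p from 0.0161 to 0.0976.

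**Figure D2:**
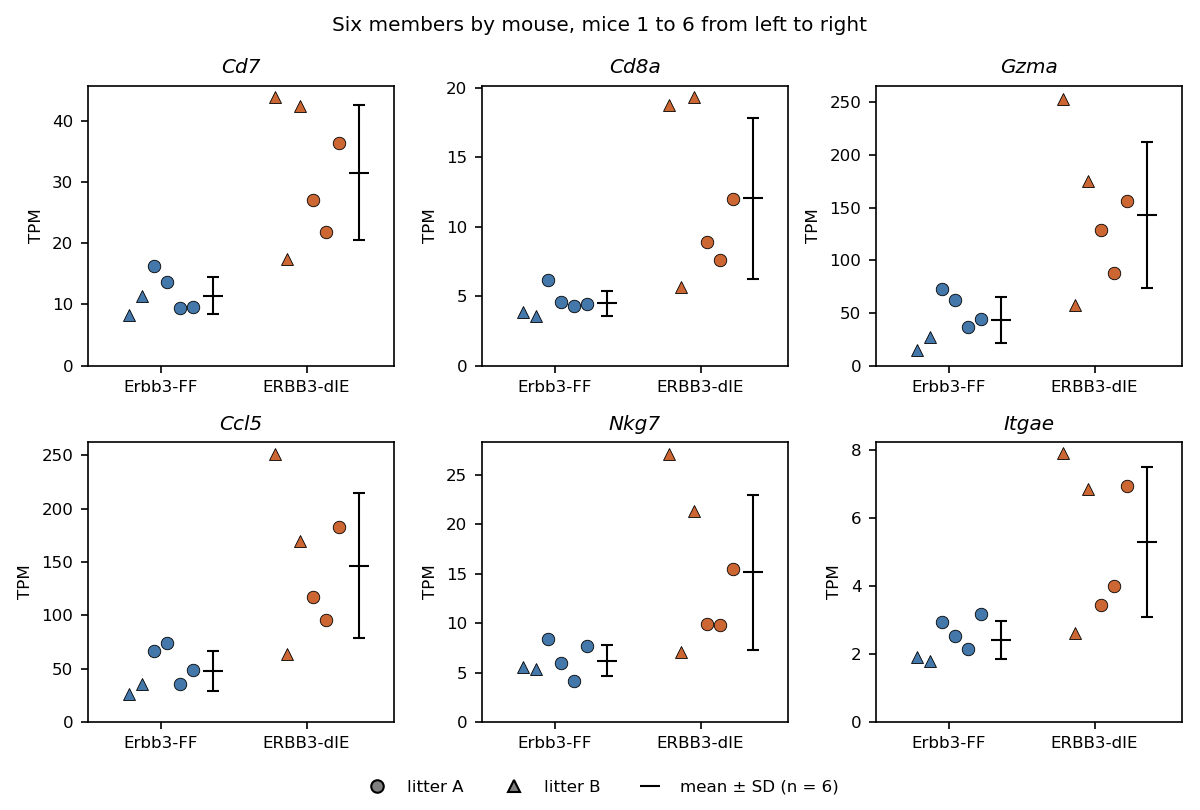
TPM (y axis) of Cd7, Cd8a, Gzma, Ccl5, Nkg7 and Itgae in the 6 Erbb3-FF and 6 ERBB3-dIE mice (x axis), with circles for litter A, triangles for litter B, and the mean ± SD beside the points. In each of these 6 genes the ERBB3-dIE mice lie above the Erbb3-FF mice of the same litter, and over both litters only Cd7 has no overlap.

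Of the surface glycoproteins, Cd7 rose and no other was called. Cd7 (ENSMUSG00000025163) encodes an immunoglobulin family protein of T and NK cells. It was 8.22 TPM at the lowest, 10.5 at the median and 16.3 at the highest in Erbb3-FF mice and 17.4 TPM at the lowest, 31.7 at the median and 43.9 at the highest in ERBB3-dIE mice. Cd7 was the only member whose ranges did not overlap between genotypes, which held for 1.02% of tested genes in this direction, and 0 members lay wholly lower (1.43% of tested genes). The mean was 2.76-fold higher (11.4 ± 3.04 TPM in the Erbb3-FF group and 31.5 ± 11.0 TPM in the ERBB3-dIE group, SD, n = 6 each), with a log2 difference of 1.39 (SE 0.25, 95% interval 0.83 to 1.95, limma adjusted p = 0.0129). It stayed called in each of the 12 fits without 1 library (adjusted p from 0.00901 to 0.0418). The Cd7 genotype log2 difference had an adjusted p of 0.05004 without Erbb3-FF mice 5 and 6 and of 0.149 without Erbb3-FF mice 1, 2 and 3, where the difference was 1.34.

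The other tested surface proteins did not pass the test. Cd96, a receptor of T and NK cells, was 1.34 to 2.44 TPM in Erbb3-FF mice and 1.75 to 6.66 TPM in ERBB3-dIE mice (difference of 0.63 in log2, SE 0.31, limma adjusted p = 0.260). Cd5, which dampens receptor signalling, ran from 0.391 to 4.86 and 0.964 to 5.03 TPM (difference of 0.55 in log2, SE 0.40, limma adjusted p = 0.455), and Thy1, a T cell glycoprotein, from 3.38 to 17.8 and 4.46 to 11.1 TPM (difference of 0.26 in log2, SE 0.36, limma adjusted p = 0.722). Ptprc went from 30.3, 14.5 and 18.5 TPM in Erbb3-FF mice 1, 2 and 3 to 4.73 to 5.15 TPM in Erbb3-FF mice 4 to 6 and 4.37 to 9.99 TPM in ERBB3-dIE mice (difference of −0.56 in log2, SE 0.43, limma adjusted p = 0.488). The 3 high libraries are those with the high B cell sums given above, and the part of B cells in the Ptprc values was not tested. Cd2, an adhesion receptor of T and NK cells that mouse B cells also carry, was 14.3, 4.45 and 3.66 TPM in the same 3 mice, 2.19 TPM in Erbb3-FF mouse 5 and 0.5002 to 0.909 TPM in the other 8 libraries. It was under the filter, and a fit with no filter gave −1.60 (SE 0.51, limma adjusted p = 0.176). Cd69, an early activation marker that also marks resident T cells, was 2.09 ± 2.11 TPM in the Erbb3-FF group and 1.15 ± 0.688 TPM in the ERBB3-dIE group (SD, n = 6 each), with 5.58 and 3.50 TPM in Erbb3-FF mice 1 and 3.

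The kinases and adaptors next to the receptor showed 0 calls by genotype out of 4 tested, with a median log2 difference of 0.14, and none had an unadjusted p under 0.05. Zap70, the kinase that binds phosphorylated CD3 chains, was 0.744 to 3.87 TPM in Erbb3-FF mice and 1.77 to 4.53 TPM in ERBB3-dIE mice (difference of 0.30 in log2, SE 0.24, limma adjusted p = 0.514). Lck, the kinase that starts the signal, was 7.55 ± 4.28 TPM in the Erbb3-FF group and 7.79 ± 2.81 TPM in the ERBB3-dIE group (log2 difference 0.01, adjusted p = 0.992). Lat, the membrane scaffold, had a difference of 0.28 (adjusted p = 0.640), and Skap1, an adaptor for integrin adhesion, one of −0.10 (adjusted p = 0.792). Themis, an adaptor of developing T cells, stayed at or under 0.759 TPM. Of these, Zap70 and Skap1 passed the test between litters described further on.

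The granule proteases Gzma and Gzmb had the largest log2 differences of the 34 tested members, and Gzma was called. Gzma (ENSMUSG00000023132), a granule protease of cytotoxic lymphocytes, was 15.2 TPM at the lowest, 40.6 at the median and 72.9 at the highest in Erbb3-FF mice and 57.4 TPM at the lowest, 142 at the median and 253 at the highest in ERBB3-dIE mice. The ranges overlapped only through ERBB3-dIE mouse 2, with 57.4 TPM, which lay under Erbb3-FF mice 3 and 4, with 72.9 and 62.3 TPM, while the other 5 ERBB3-dIE mice had 88.3 to 253 TPM. The mean was 3.32-fold higher (43.2 ± 21.6 TPM in the Erbb3-FF group and 143 ± 69.2 TPM in the ERBB3-dIE group, SD, n = 6 each), with a log2 difference of 1.83 (SE 0.40, limma adjusted p = 0.0267). Gzma lost its call without Erbb3-FF mouse 1, 2 or 6, or without ERBB3-dIE mouse 3, 4 or 6, with adjusted p from 0.0234 to 0.0711 over the 12 fits. Gzmb, the granzyme that activates caspases in target cells, was 3.68 TPM at the lowest, 11.9 at the median and 20.4 at the highest and 11.6 TPM at the lowest, 33.3 at the median and 56.5 at the highest (difference of 1.63 in log2, SE 0.46, limma adjusted p = 0.0633). Its low end was set by litter B: Erbb3-FF mice 1 and 2 had 3.68 and 3.75 TPM and the 4 of litter A 10.9 to 20.4 TPM.

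Nkg7, a membrane protein of granules, was 4.11 TPM at the lowest, 5.78 at the median and 8.43 at the highest in Erbb3-FF and 7.04 TPM at the lowest, 12.7 at the median and 27.2 at the highest in ERBB3-dIE mice (difference of 1.08 in log2, SE 0.31, limma adjusted p = 0.0690). Its only overlap was ERBB3-dIE mouse 2, with 7.04 TPM, under Erbb3-FF mice 3 and 6. Prf1, which encodes perforin, was under the filter at 0.262 ± 0.161 TPM in the Erbb3-FF group and 0.539 ± 0.310 TPM in the ERBB3-dIE group (SD, n = 6 each), and so was Fasl, a ligand that triggers cell death, at 0.701 ± 0.486 TPM in the Erbb3-FF group and 0.697 ± 0.368 TPM in the ERBB3-dIE group. Levels of the granule genes were far apart within 1 library: in ERBB3-dIE mouse 1, Gzma stood at 253 TPM, Gzmb at 56.5, Nkg7 at 27.2 and Prf1 at 0.884 TPM.

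The chemokine Ccl5 rose and Xcl1 did not pass the test. Ccl5 (ENSMUSG00000035042), which draws T cells and other leukocytes, was 26.2 TPM at the lowest, 42.2 at the median and 74.2 at the highest in Erbb3-FF mice and 63.6 TPM at the lowest, 143 at the median and 251 at the highest in ERBB3-dIE mice. ERBB3-dIE mouse 2, with 63.6 TPM, lay under Erbb3-FF mice 3 and 4, with 66.4 and 74.2 TPM, and the other 5 lay above all Erbb3-FF mice. The mean was 3.07-fold higher (47.8 ± 19.1 TPM in the Erbb3-FF group and 147 ± 68.005 TPM in the ERBB3-dIE group, SD, n = 6 each), with a log2 difference of 1.62 (SE 0.35, limma adjusted p = 0.0237). It lost its call without Erbb3-FF mouse 1, 2 or 6 or ERBB3-dIE mouse 6 (adjusted p from 0.0180 to 0.0668 over the 12 fits). Xcl1, a chemokine for cross-presenting dendritic cells, was 2.46 TPM at the lowest, 3.38 at the median and 6.34 at the highest in Erbb3-FF and 4.19 TPM at the lowest, 5.87 at the median and 7.17 at the highest in ERBB3-dIE mice (difference of 0.57 in log2, SE 0.20, limma adjusted p = 0.122). Its highest value, 7.17 TPM, was in ERBB3-dIE mouse 2, the mouse with the lowest Ccl5 of its genotype.

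Of the NK type receptors and their adaptors, 0 of 5 tested were called, and 4 of the 5 had an unadjusted p under 0.05, all positive. Of all tested genes 8.71% were higher at that level. Klrd1, which encodes CD94, was 0.845 TPM at the lowest, 2.22 at the median and 4.01 at the highest in Erbb3-FF and 1.43 TPM at the lowest, 5.73 at the median and 7.89 at the highest in ERBB3-dIE mice (difference of 1.09 in log2, SE 0.40, limma adjusted p = 0.132). In this gene 5 ERBB3-dIE mice lay above the Erbb3-FF range and mouse 2, with 1.43 TPM, lay inside it. Cd160, a receptor typical of intraepithelial lymphocytes, was 1.47 TPM at the lowest, 2.24 at the median and 2.56 at the highest and 2.42 TPM at the lowest, 3.61 at the median and 6.47 at the highest (difference of 0.72 in log2, SE 0.21, limma adjusted p = 0.0722). Cd244a, a receptor of NK and CD8+ T cells, was 0.512 to 1.63 and 1.16 to 1.90 TPM (difference of 0.54 in log2, SE 0.20, limma adjusted p = 0.135). Klre1 was listed at 0 in Erbb3-FF mice 1, 4, 5 and 6, at 0.582 and 0.272 TPM in mice 2 and 3, and at 0.304 to 1.18 TPM in ERBB3-dIE mice, and Klrk1, which encodes NKG2D, stayed at or under 1.09 TPM throughout.

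Fcer1g and Tyrobp are the adaptors through which such receptors signal. Fcer1g was 6.26 to 12.6 TPM in Erbb3-FF mice and 9.76 to 16.6 TPM in ERBB3-dIE mice (difference of 0.41 in log2, SE 0.18, limma adjusted p = 0.207). Tyrobp (ENSMUSG00000030579), which encodes DAP12, was 6.39 TPM at the lowest, 9.04 at the median and 26.8 at the highest and 9.26 TPM at the lowest, 12.3 at the median and 17.2 at the highest (difference of 0.19 in log2, SE 0.31, limma adjusted p = 0.769), with 26.8 TPM in Erbb3-FF mouse 1 as the highest. The 17 macrophage and dendritic cell genes summed to 313 TPM in that mouse, 178 in Erbb3-FF mouse 2, 68.7 to 99.8 in Erbb3-FF mice 3 to 6, 73.7 to 77.3 in ERBB3-dIE mice 1 to 3 and 133 to 154 TPM in ERBB3-dIE mice 4 to 6. Their part in the Tyrobp values was not tested. NK cells proper had low marker levels, with Ncr1 at 0.0982 ± 0.0943 TPM in the Erbb3-FF group and 0.139 ± 0.0663 TPM in the ERBB3-dIE group and Klrb1c at 0.240 ± 0.244 TPM in the Erbb3-FF group and 0.237 ± 0.120 TPM in the ERBB3-dIE group (SD, n = 6 each).

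The receptors for homing, retention and cytokines had positive differences and no call. Itgae, the integrin chain that holds lymphocytes at the epithelium, was 1.78 TPM at the lowest, 2.33 at the median and 3.16 at the highest in Erbb3-FF and 2.62 TPM at the lowest, 5.43 at the median and 7.91 at the highest in ERBB3-dIE mice (difference of 0.94 in log2, SE 0.26, limma adjusted p = 0.0630). The overlap came from ERBB3-dIE mouse 2, with 2.62 TPM. Il2rb, the chain shared by the receptors for interleukins 2 and 15, was 1.11 to 2.38 and 1.23 to 3.94 TPM (difference of 0.62 in log2, SE 0.24, limma adjusted p = 0.161). Ccr9, the receptor that guides lymphocytes to the small intestine, was 0.729 to 1.58 and 1.08 to 2.37 TPM (difference of 0.48 in log2, SE 0.19, limma adjusted p = 0.172), and Cxcr6 0.788 to 1.44 and 0.832 to 3.32 TPM (difference of 0.50 in log2, SE 0.27, limma adjusted p = 0.325). The transcription factors were low. Runx3, which sets the CD8 programme, was 2.15 ± 2.72 TPM in the Erbb3-FF group and 1.09 ± 0.404 TPM in the ERBB3-dIE group (SD, n = 6 each, log2 difference −0.35, adjusted p = 0.700), and 7.60 TPM in Erbb3-FF mouse 6 stood apart from 0.517 to 1.96 TPM in the other 11. Tbx21 and Eomes, T-box factors of cytotoxic cells, stayed at or under 0.740 and 0.966 TPM.

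**Figure D3:**
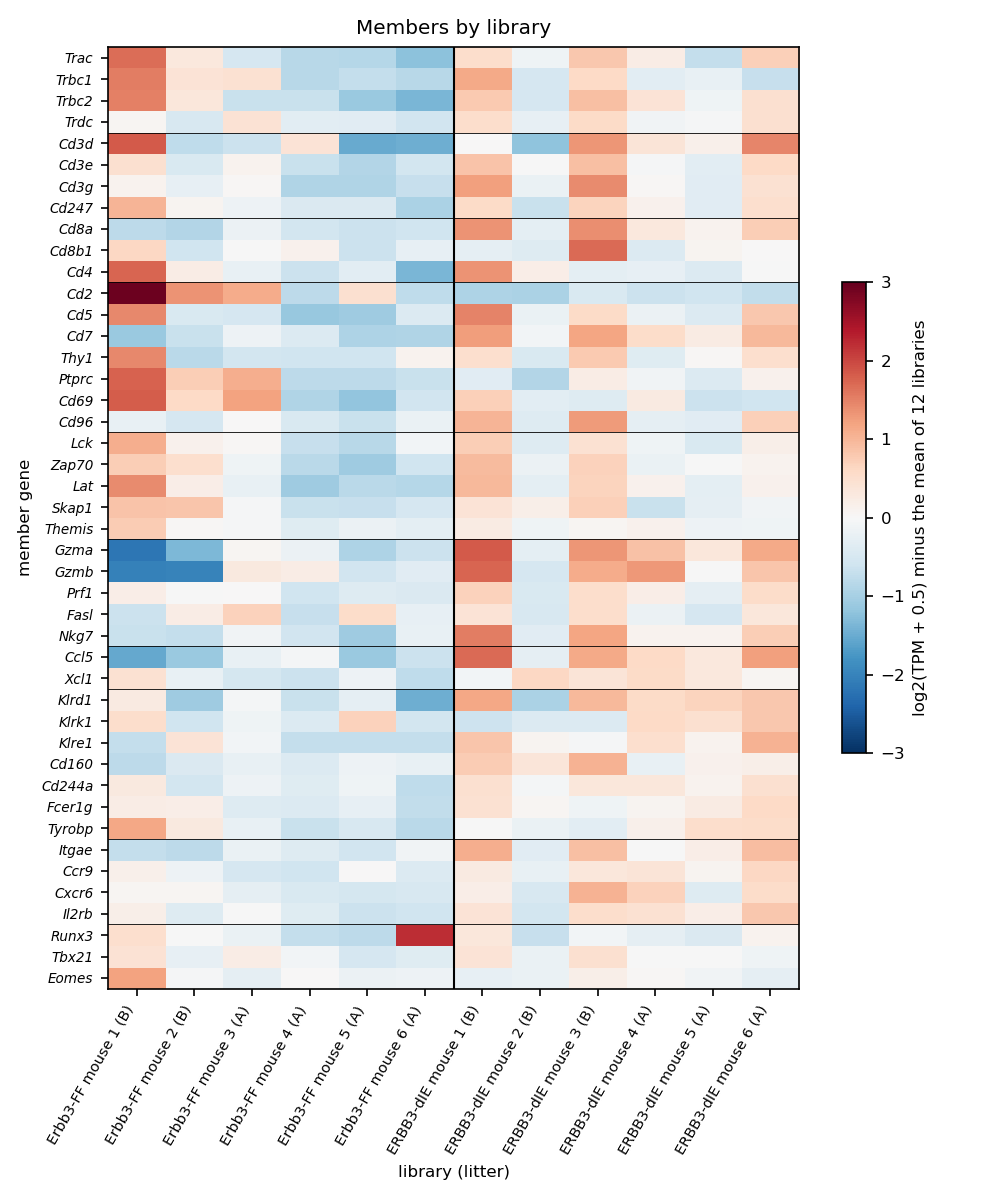
Each of the 44 members (y axis, grouped by role) in the 12 libraries (x axis, litter in brackets), as log2(TPM + 0.5) minus the gene's mean over the libraries. ERBB3-dIE mice 1, 3 and 6 are high in most members, and Erbb3-FF mouse 1 is the highest in Trac, Trbc2, Lck and Lat and the lowest in Gzma and Gzmb.

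The members did not follow 1 pattern over the mice. Erbb3-FF mouse 1 held the highest value of all 12 libraries in 16 members (Trac, Trbc1, Trbc2, Cd3d, Cd247, Cd4, Cd2, Thy1, Ptprc, Cd69, Lck, Lat, Skap1, Themis, Tyrobp and Eomes) and the lowest in 6. ERBB3-dIE mouse 1 was highest in 11 members, ERBB3-dIE mouse 3 in 9 and ERBB3-dIE mouse 6 in 5. ERBB3-dIE mouse 2 was the lowest of its genotype in 24 of 44 members. At the low end of the 12 libraries stood Erbb3-FF mouse 5 in 14 members, mouse 6 in 10 and mouse 4 in 7. In Erbb3-FF mouse 1 the 5 cytotoxic effectors summed to 25.2 TPM, the lowest of all libraries, and the 4 T cell receptor chains to 135 TPM, the highest. Over all Erbb3-FF mice the effectors had a median sum of 59.4 TPM (25.2 to 104), against 192 TPM in ERBB3-dIE mice (76.4 to 339), and Erbb3-FF mice 3 and 4 lay above ERBB3-dIE mouse 2.

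**Figure D4:**
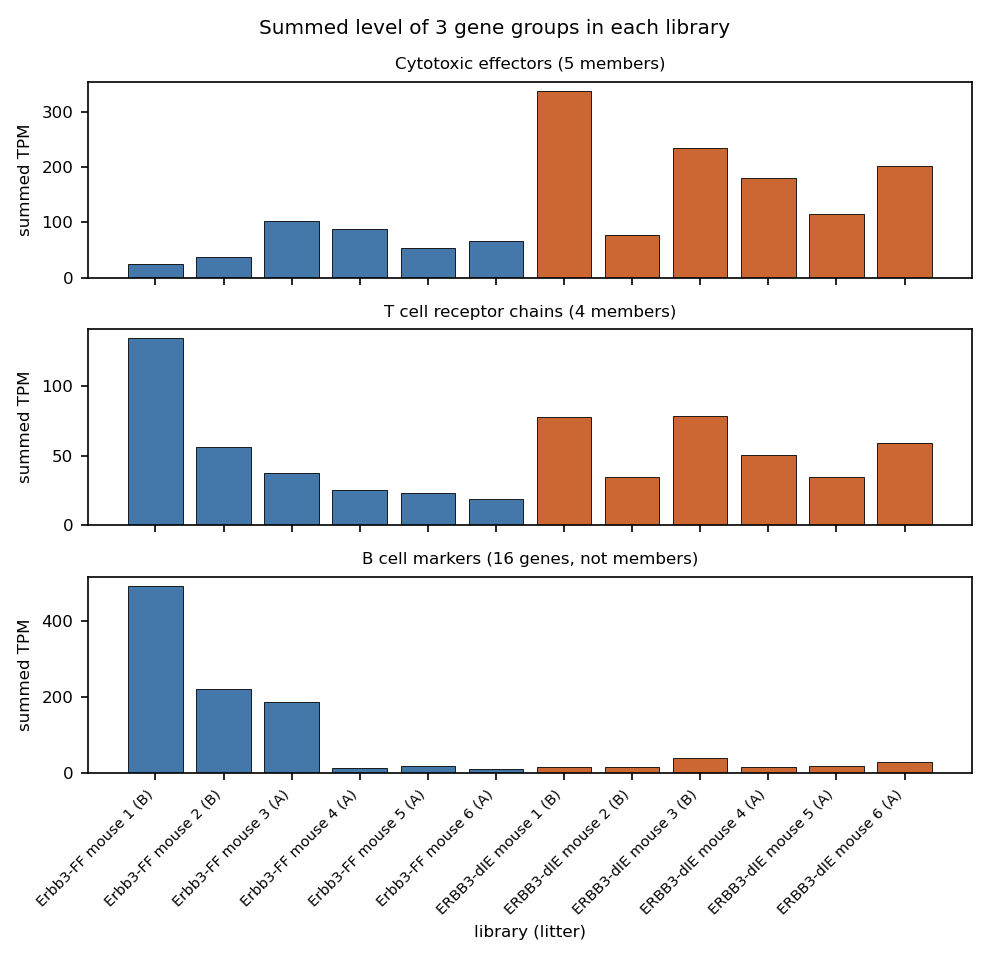
Summed TPM per mouse (y axis) of the 5 cytotoxic effectors, the 4 T cell receptor chains and the 16 B cell genes in Erbb3-FF and ERBB3-dIE mice (x axis). Erbb3-FF mice 1, 2 and 3 are the 3 libraries with high B cell sums, and Erbb3-FF mouse 1 is highest for receptor chains and lowest for effectors.

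The levels of 10 pairs of members were set against each other within each library. Ranges are of TPM ratios, and the log2 ratios of TPM + 0.5 were compared between genotypes with a two-sided exact permutation test over the 924 relabellings of 6 against 6 mice, with p adjusted over the 10. None passed. Gzma to Cd3e ran from 1.21 to 11.3 (median 7.502) in Erbb3-FF and 6.44 to 15.2 (median 11.9) in ERBB3-dIE mice (mean log2 difference 1.08, exact permutation p = 0.0325, adjusted p = 0.0812). Ccl5 to Cd3e ran from 2.07 to 13.5 (median 7.21) and 7.13 to 15.03 (median 13.3) (mean log2 difference 0.90, exact permutation p = 0.0281, adjusted p = 0.0812). In both the lowest value was Erbb3-FF mouse 1. Cd8b1 to Cd8a was 0.184 to 0.676 (median 0.257) in Erbb3-FF and 0.0634 to 0.314 (median 0.156) in ERBB3-dIE mice (mean log2 difference −0.97, exact permutation p = 0.0130, adjusted p = 0.0649), and ERBB3-dIE mice 1, 2, 4 and 6 lay below the lowest Erbb3-FF mouse. Cd3e to Ptprc was 0.416 to 1.16 (median 0.751) and 1.11 to 2.53 (median 1.59) (mean log2 difference 1.12, exact permutation p = 0.0130, adjusted p = 0.0649).

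Cd8a to Cd4 was 0.550 to 12.3 (median 3.83) and 2.74 to 14.5 (median 6.39) (mean log2 difference 1.01, exact permutation p = 0.102, adjusted p = 0.204). Trdc to Trac, the balance of delta to alpha chain transcripts, was 0.0173 to 0.119 (median 0.0640) and 0.0406 to 0.0847 (median 0.0517) (mean log2 difference −0.08, exact permutation p = 0.864, adjusted p = 0.864). The authors' mean normalized count, which is not divided by length, was 41.3 for Trdc and 72.6 for Trac, so the level of this ratio depends on the measure. For Gzmb to Gzma, Fcer1g to Cd3e, Klrk1 to Cd3e and Itgae to Cd3e the differences were −0.25, −0.22, −0.51 and 0.26, with adjusted permutation p of 0.404, 0.558, 0.445 and 0.501. An exact permutation of genotype within each litter, added after the data were seen, gave an adjusted p under 0.05 for 5 of the 10 ratios: 1.26 (adjusted p = 0.0286) for Gzma to Cd3e, 1.04 (adjusted p = 0.0286) for Ccl5 to Cd3e, −1.01 (adjusted p = 0.0343) for Cd8b1 to Cd8a, 1.19 (adjusted p = 0.0343) for Cd8a to Cd4 and 1.15 (adjusted p = 0.0343) for Cd3e to Ptprc. In litter A the Gzma to Cd3e difference was 0.63 and in litter B 2.13, with only 2 Erbb3-FF mice in the latter. In the same order it was 0.65 and 1.59 for Ccl5 to Cd3e, −0.79 and −1.32 for Cd8b1 to Cd8a, 0.46 and 2.22 for Cd8a to Cd4, and 0.41 and 2.17 for Cd3e to Ptprc. Cd3e to Ptprc was 0.416 to 0.528 in Erbb3-FF mice 1 to 3, which had high B cell sums and high Ptprc. It was 0.974 to 1.16 in Erbb3-FF mice 4 to 6 and 1.11 to 1.46 in ERBB3-dIE mice 4 to 6. The part of B cells in this ratio was not tested.

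Within each litter the genotypes can be set side by side. In both litters every ERBB3-dIE mouse exceeded every Erbb3-FF mouse of that litter in 6 members, Cd8a, Cd7, Gzma, Nkg7, Ccl5 and Itgae, all among the 34 tested, where 2.46% of all tested genes did so. In litter A alone this held for 14 of the 34 (11.7% of all tested genes), adding Trbc2, Xcl1, Klrd1, Cd244a, Fcer1g, Tyrobp, Ccr9 and Il2rb, and for Klre1 among the untested. In litter B alone it held for 8 of 34 (8.73% of all tested genes), adding Gzmb and Cd160, and Ptprc, Skap1 and Tyrobp were lower in all ERBB3-dIE mice of that litter (23.7% of all tested genes). Mean levels were higher in ERBB3-dIE mice for 31 of the 34 tested members in litter A (57.2% of all tested genes) and for 18 of 34 in litter B (38.5% of all tested genes). Gzma was 54.1 TPM in Erbb3-FF mice and 124 TPM in ERBB3-dIE mice of litter A (n = 4 and 3), and 21.2 and 162 TPM in those of litter B (n = 2 and 3). Fitted alone, neither litter gave a call among the members. Few genes of the 12605 were called in these fits, 4 higher and 2 lower in litter A and 6 higher and 9 lower in litter B.

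Between litters, with genotype in the model, 2 of the 34 members were higher in litter B and 0 were lower, where 7.16% of tested genes were called higher and 1.4% lower. Skap1 (ENSMUSG00000057058) was 4.20 to 7.11 TPM in the 5 mice of litter B and 2.07 to 3.58 TPM in the 7 of litter A, without overlap (log2 difference 1.03, SE 0.18, limma adjusted p = 0.0167), and it was called in each of 12 fits without 1 library. Zap70 (ENSMUSG00000026117) was 1.81 to 4.53 TPM in litter B and 0.744 to 2.29 TPM in litter A (0.88, SE 0.25, adjusted p = 0.0493), and it was called in 2 of the 12, those without Erbb3-FF mouse 3 or ERBB3-dIE mouse 2 (adjusted p from 0.0206 to 0.122). The count of 2 was 4 in those 2 fits and 1 in the other 10. The differences of the other signalling genes were 0.96 for Lat (adjusted p = 0.0733) and 0.69 for Lck (adjusted p = 0.117). Receptor chains also lay higher in litter B without passing, with 1.12 for Trbc1 (adjusted p = 0.0639) and 1.05 for Trac (adjusted p = 0.0918). Gzma, at −0.54 (adjusted p = 0.402), and Ccl5, at −0.31 (adjusted p = 0.583), had negative differences that did not pass. The litter difference was positive in 27 of 34 members and in 55.6% of all tested genes, with medians of 0.30 and 0.046.

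**Figure D5:**
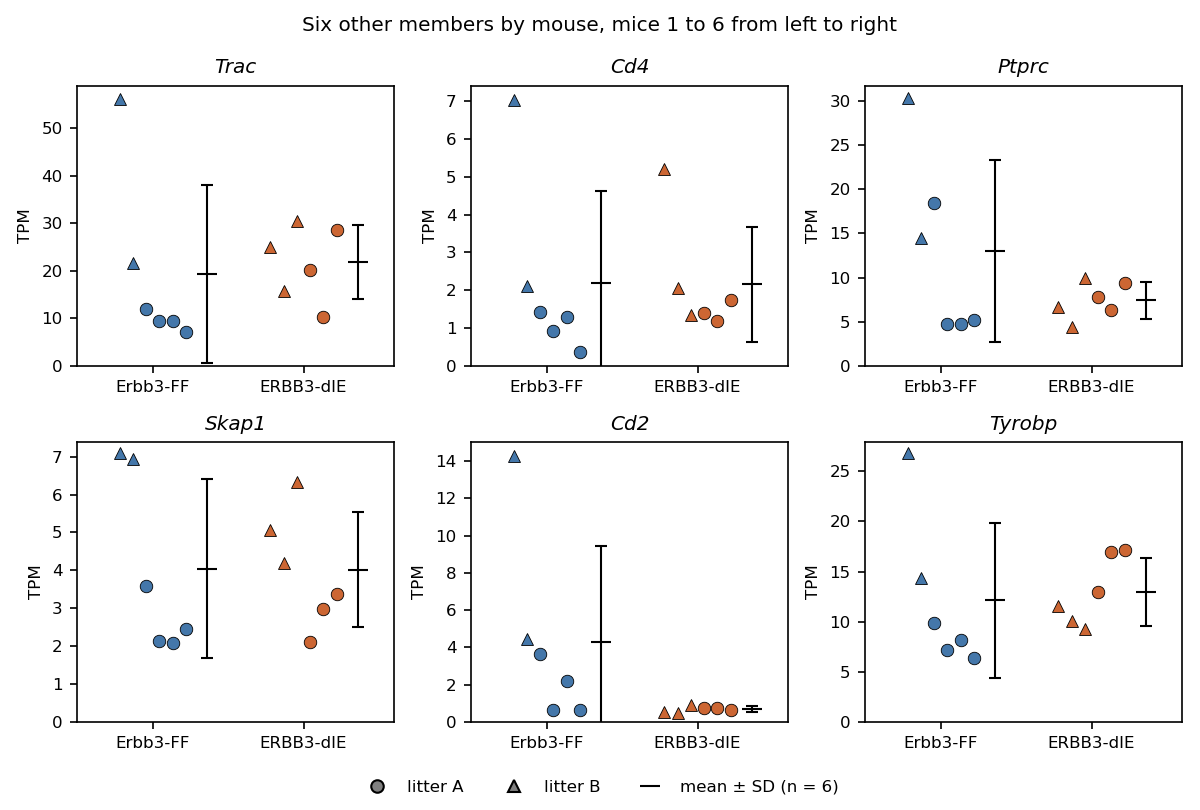
TPM (y axis) of Trac, Cd4, Ptprc, Skap1, Cd2 and Tyrobp by mouse and genotype (x axis), with circles for litter A, triangles for litter B and the mean ± SD (bars cut at 0). Erbb3-FF mouse 1 has the highest value in each of these 6 genes, and the ranges of the genotypes overlap in each.

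A difference between litters in the genotype effect was tested by the interaction term. No member was called, nor was any gene of the table (0%), while 7 of 34 members had an unadjusted p under 0.05, against 9.31% of all tested genes. Tyrobp came nearest. In litter A it was 6.39 to 9.92 TPM in Erbb3-FF mice and 13.0 to 17.2 TPM in ERBB3-dIE mice, and in litter B 14.4 to 26.8 and 9.26 to 11.6 TPM. ERBB3-dIE mice lay wholly above in litter A and wholly below in litter B, which held for 1 of the 34 members and 1.2% of tested genes. The reverse arrangement held for 0 members and was not counted over all genes. The Tyrobp interaction was −1.86 (unadjusted p = 0.000236 in limma, adjusted p = 0.135). Without Erbb3-FF mouse 2 it was called, at −2.29 (adjusted p = 0.0328), but litter B then holds 1 Erbb3-FF mouse, the one with the highest Tyrobp, which is assumed to vary like the other groups. Among the members with an unadjusted p under 0.05, the interaction was also negative for Trac (−1.53), Trbc2 (−1.72), Ptprc (−1.75) and Fcer1g (−0.83), and positive for Gzmb (1.99) and Cd160 (1.05). At any p it was negative for 22 of the 34 tested members and for 8360 of all 12605 tested genes. Litter B held only 2 Erbb3-FF mice, and both were among the 3 libraries with high B cell sums, so litter and B cell content cannot be told apart in this term.

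Other genes of the same cells were read from lists beside the members. For the counts of every list, the shares of all tested genes were 1.66% called higher and 3.7% lower. At an unadjusted p under 0.05 they were 8.71% and 13.1%. Of 24 further T cell genes 16 were tested, with 0 called in either direction by limma, 1 higher and 0 lower at an unadjusted p under 0.05 and a median of 0.10. The smallest p was that of Cd6, a CD5-like receptor (0.73, SE 0.28, adjusted p = 0.162). Of the genes of naive, central memory and follicular T cells 2 of 10 were tested with 0 calls, and Tcf7, a factor of naive and memory T cells, had −0.65, SE 0.35, adjusted p = 0.316. Ccr7, a homing receptor of circulating T cells, was 5.18 TPM in Erbb3-FF mouse 1 and at most 0.237 TPM in ERBB3-dIE mice. Among 19 tested genes of T cell receptor signalling 0 were called, 0 higher and 4 lower had an unadjusted p under 0.05, and Pag1, a membrane adaptor that recruits the inhibitory kinase CSK, had −0.40, SE 0.13, adjusted p = 0.0902.

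Of the genes of gamma delta T cells 5 were tested, with 1 higher and 1 lower. Trgc2, a constant gene of the gamma chain locus, rose from 4.54 to 10.7 TPM in Erbb3-FF to 11.4 to 30.6 TPM in ERBB3-dIE mice without overlap (7.75 ± 2.34 TPM in the Erbb3-FF group and 19.0 ± 7.94 TPM in the ERBB3-dIE group, SD, n = 6 each, 1.20, SE 0.28, adjusted p = 0.0341). Trgc1 and Trgc4, of the same locus, had 0.53, SE 0.26, adjusted p = 0.260 and 0.89, SE 0.23, adjusted p = 0.0502. These constant genes resemble each other, so reads between them may be divided unevenly, and alpha beta T cells can transcribe the gamma locus too. Sox13, a factor of gamma delta T cells that other tissues also express, fell (45.8 ± 4.24 TPM in the Erbb3-FF group and 33.2 ± 6.19 TPM in the ERBB3-dIE group, −0.52, SE 0.11, adjusted p = 0.0220). Of NK and innate lymphoid cell genes 2 of 16 were tested, and Hopx rose (27.7 ± 2.47 TPM in the Erbb3-FF group and 38.0 ± 4.86 TPM in the ERBB3-dIE group, 0.43, SE 0.10, adjusted p = 0.0269). Hopx is also expressed by epithelial cells. Of 11 tested genes of granule release 1 rose, Rab27a, a GTPase that docks granules in lymphocytes and many other cells (12.1 ± 1.36 TPM in the Erbb3-FF group and 19.3 ± 1.72 TPM in the ERBB3-dIE group, 0.64, SE 0.10, adjusted p = 0.00618).

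Of 18 tested ligands and partners of these lymphocytes on the epithelium 0 were higher and 1 lower, with a median of −0.21. Cxcl16, the ligand of CXCR6, fell from 16.4 ± 5.66 to 10.8 ± 2.33 TPM (SD, n = 6 each, −0.64, SE 0.14, adjusted p = 0.0268), while Cxcr6 itself had the difference of 0.50 given above. Il15 was 33.2 ± 17.6 TPM in the Erbb3-FF group and 21.7 ± 9.53 TPM in the ERBB3-dIE group (−0.76, SE 0.23, adjusted p = 0.0821), and it was higher in litter B by 1.12 (adjusted p = 0.0249). Its partner Il15ra had 0.35, SE 0.17, adjusted p = 0.264. Cdh1, which encodes E-cadherin, had −0.22, SE 0.08, adjusted p = 0.153, and Ccl25, the ligand of CCR9, had −0.13, SE 0.19, adjusted p = 0.744 at 599 and 616 TPM. Btnl1 and Btnl6, butyrophilin-like genes that sustain gamma delta intraepithelial lymphocytes, had −0.46, SE 0.20, adjusted p = 0.206 and −0.32, SE 0.18, adjusted p = 0.335. Of 8 tested chemokine and chemokine receptor genes 1 rose, Gpr55, a lipid receptor found on intraepithelial lymphocytes (1.58 ± 0.333 TPM in the Erbb3-FF group and 2.98 ± 0.586 TPM in the ERBB3-dIE group, 0.72, SE 0.16, adjusted p = 0.0257).

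Ifng, the cytokine that T and NK cells release onto the epithelium, was under the filter, at 0 to 0.354 TPM in Erbb3-FF mice and 0 to 1.78 TPM in ERBB3-dIE mice, with overlap. Of the 24 genes of the interferon gamma response all were tested, 10 rose and 2 fell, with a median of 0.97, where 1.66% of all tested genes rose and 3.7% fell. The largest rises were Ubd (3.62, SE 0.63, adjusted p = 0.0108), Iigp1 (1.95, SE 0.44, adjusted p = 0.0288), Tgtp2 (1.89, SE 0.42, adjusted p = 0.0268) and Gbp6 (1.87, SE 0.43, adjusted p = 0.0310), and the falls were the receptor chain Ifngr1 (−0.40, SE 0.09, adjusted p = 0.0297) and the kinase Jak2 (−0.71, SE 0.11, adjusted p = 0.00569).

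A scraping also holds B cells, myeloid cells and connective tissue. By limma 0 were called among 5 tested B cell genes (median −1.16, 1 lower at an unadjusted p under 0.05, Cd79a with −1.61, SE 0.66, adjusted p = 0.179), 13 macrophage and dendritic cell genes (median 0.18, 0 at an unadjusted p under 0.05, with Itgax nearest at −0.49, SE 0.24, adjusted p = 0.261), 3 mast cell and granulocyte genes (median 0.37, 0 at an unadjusted p under 0.05, with Kit nearest at 0.25, SE 0.22, adjusted p = 0.552), 8 of stroma (median 0.15, 1 lower at an unadjusted p under 0.05, Pdgfrb with −0.67, SE 0.18, adjusted p = 0.0534) and 4 of endothelium (median 0.12, 0 at an unadjusted p under 0.05, with Egfl7 nearest at 0.67, SE 0.33, adjusted p = 0.268). Of 9 plasma cell genes 2 rose, Fkbp11 (0.98, SE 0.18, adjusted p = 0.0127) and Txndc5 (0.58, SE 0.09, adjusted p = 0.00618), both of the secretory pathway of many cells. Of 6 smooth muscle genes 1 fell, Mylk (−0.56, SE 0.14, adjusted p = 0.0398). Of 10 epithelial genes Krt18 rose (0.34, SE 0.08, adjusted p = 0.0377) and Krt20 (−0.59, SE 0.11, adjusted p = 0.0138) and Cdh17 (−0.52, SE 0.09, adjusted p = 0.0109) fell. The part of these cells in the members' differences was not tested.

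The authors' deposited table, whose test and design are not described in the sources used here beyond the tool, called more members. In it 14 of the 44 were higher at an adjusted p under 0.05 and 1 was lower, where 5.07% and 7.51% of its 15490 genes with an adjusted p were. The 14 were Cd3e, Cd3g, Cd8a, Cd7, Cd96, Gzma, Nkg7, Ccl5, Klrd1, Klre1, Cd160, Cd244a, Itgae and Il2rb, so they hold all 4 called by limma. The authors' deposited table gives log2 fold changes of 1.44 (adjusted p = 1.34e-06) for Cd7, 1.61 (adjusted p = 0.000102) for Ccl5 and 1.37 (adjusted p = 6.87e-05) for Cd8a. For Itgae the authors' deposited table has 1.12 (adjusted p = 0.00224), and for Cd3e 0.72 (adjusted p = 0.0138). The lower one in the authors' deposited table is Cd2, with −2.12 (adjusted p = 0.00449), the gene whose high values lie in Erbb3-FF mice 1, 2, 3 and 5. For Gzmb the authors' deposited table has 1.43 (adjusted p = 0.0652), also short of the threshold.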

How the data were processed

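Messenger RNA of ileal scrapings from 12 mice, each a separate mouse per the labels, was sequenced as single-end reads of 75 bases from a strand-marking library kit, per the labels' protocols. CASAVA, Salmon 1.10.0, DESeq2 and the build GRCm39 are named in the submitters' processing notes. Annotation release and filters: not given in the sources used here. The authors deposited 1 table with the TPM of each library and both genotype means in TPM. It also holds the authors' baseMean, a signal averaged over normalized libraries, the authors' log2 fold change and standard error, the deposited Wald score, and the p-value and adjusted p-value of the authors. Their fold changes take Erbb3-FF as the base: in 1738 of 1738 genes called in it with a baseMean over 50 the sign matched the TPM means.

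Since TPM do not keep counts, no count model was used. The filter asked for 1 TPM or more in 6 libraries or more, and the 12605 genes left were tested on log2(TPM + 0.5) with limma 3.58.1 in R 4.3.3 (lmFit, eBayes with a variance trend), with litter and genotype as terms, and with their product in a second model. P-values (two-sided) were adjusted by Benjamini-Hochberg over the 12605 genes, and the threshold was 0.05. Differences on the log2(TPM + 0.5) scale understate changes of low genes. Values with ± are SD over mice. No libraries were near copies (correlations 0.955 to 0.976).

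The members, their roles and the 17 lists beside them were chosen with earlier results of these data known. All members could be named, with full statistics for called ones, receptor and CD3 chains and the smallest p of each role. Of each other list up to 4 called genes by size, or else the gene with the smallest p, were named. Ccr7, Ms4a1, Ncr1, Klrb1c, Ifng and the ligands and gamma chain genes named beside a receptor were added after their values were seen. A planned list of genes most like the CD3 chains was not used. On simulated data for the genotype comparison of 12605 genes, 16.1% of changes of 0.5 (log2), 64.2% of 1 and 89.4% of 2 were recovered, and 5.05% of calls were false. The simulated noise was normal, independent between genes and of equal spread in both genotypes. It held no outlying library and no genes that vary together, so these rates need not apply to the real libraries. Alternatives covered pseudocount, filter, scaling, variance model, litter term, mouse number, covariates, libraries left out, permutation and the authors' test.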

Additional observations from a re-analysis of the deposited data

Results flagged for a closer look

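Within each genotype of 6 mice, the highest or lowest value of a member was compared with its nearest neighbour by Dixon's gap test. Of 88 groups of values (44 members in 2 genotypes) 16 had a value far from the other 5. For normal values chance alone gives this in about 1 in 20 groups. The gaps were taken on TPM without a log, and all 16 values were the highest of their group, so that share may be too low here. Members measured in the same mice are also not independent. Of the 16, 13 were the highest value of the Erbb3-FF mice in mouse 1: Trac at 56.1 TPM, Trbc1 at 30.3, Trbc2 at 47.3, Cd3d at 19.9, Cd247 at 3.71, Cd4 at 7.04, Cd2 at 14.3, Cd5 at 4.86, Thy1 at 17.8, Lck at 15.6, Lat at 13.7, Themis at 0.759 and Eomes at 0.966 TPM. None of the 13 is a granule gene, a chemokine or an NK type receptor. Without a flag, mouse 1 was also the highest Erbb3-FF mouse in Prf1 (0.484 TPM), Xcl1 (6.34), Klrd1 (4.01) and Cd244a (1.63). It was the lowest in Gzma (15.2 TPM), Gzmb (3.68) and Ccl5 (26.2). Beside the 13 flagged values stand the 492 TPM of the B cell genes in the same library, and the part of B cells in them was not tested. The other 3 were Cd8b1 at 6.07 TPM in ERBB3-dIE mouse 3, Cd4 at 5.20 TPM in ERBB3-dIE mouse 1 and Runx3 at 7.60 TPM in Erbb3-FF mouse 6, a library rich in ribosomal sequence.

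The genotype difference of Tyrobp had opposite signs in the litters: all ERBB3-dIE mice lay above all Erbb3-FF mice in litter A and below them in litter B. The difference between the litters, −1.86 on the log2 scale, did not pass the interaction test (limma adjusted p = 0.135). This arrangement, above in litter A and below in litter B, was found in 1.2% of all tested genes and in 1 of the 34 tested members.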

How the results depend on the processing

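The 4 called members kept a positive difference in every alternative run, with lowest values of 1.19 for Cd7, 0.88 for Cd8a, 1.21 for Gzma and 1.23 for Ccl5. These 4 were picked by their calls in the same libraries, so a kept sign was likely beforehand. Of the members not called, some changed sign over the alternative runs and others did not. Trac ran from −0.59 to 1.05 and Tyrobp from −0.90 to 1.06, while Nkg7 ran from 0.81 to 1.47 and Itgae from 0.68 to 1.30. The count of members higher by genotype, 4, was 1 with no filter (more genes tested), 7 with upper-quartile scaling and 7 without mitochondrial and ribosomal sequence, 10 with library weights, 8 with a smooth muscle covariate, 0 with a B cell covariate, 0 in litter A alone, 0 in litter B alone, 0 without Erbb3-FF mice 5 and 6, 1 without Erbb3-FF mice 1, 2 and 3 (an alternative chosen after seeing the data), 0 by the exact permutation per gene and 14 in the authors' deposited table, which calls 1 lower. Genes called higher over the whole table, 209 in the main fit, numbered 105 with no filter, 422 with upper-quartile scaling and 220 without mitochondrial and ribosomal sequence. They numbered 344 with library weights, 232 with a smooth muscle covariate and 22 with a B cell covariate. The permutation per gene could call no gene, so its 0 says nothing about the members. Its smallest possible p over 924 relabellings, 0.00216, was reached by Cd7 and gave an adjusted permutation p of 0.0886. The count was 3 to 5 under both other pseudocounts, a mean of at least 2 TPM, median-ratio scaling, quantile normalization, robust variances and no litter term, and 1 to 9 without 1 library. The count higher in litter B, 2, was 1 with a pseudocount of 0.1, with no filter, with a mean of at least 2 TPM, with median-ratio or upper-quartile scaling, without mitochondrial and ribosomal sequence, and without Erbb3-FF mice 1, 2 and 3, 5 with library weights, 0 with either covariate or without Erbb3-FF mice 5 and 6, and 1 to 4 without 1 library. Without Erbb3-FF mice 1, 2 and 3, 1 member was lower in litter B, Tyrobp at −0.58 (limma adjusted p = 0.0493). That litter difference rests on ERBB3-dIE mice alone, so it compares other groups than the 0.30 over all libraries. The interaction count was 0 to 1 without 1 library. Where no construction is named, the cause was not tested.

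Of the ratios, permutation within litters gave 1.19 for Cd8a to Cd4, −1.01 for Cd8b1 to Cd8a, 1.26 for Gzma to Cd3e, 1.04 for Ccl5 to Cd3e and 1.15 for Cd3e to Ptprc, all now past the threshold, and a pseudocount of 1 gave −0.93 for Cd8b1 to Cd8a (adjusted permutation p = 0.0433). Trdc to Trac, at −0.08, was 0.0792 with a pseudocount of 0.1 and 0.0933 within litters. Without 1 library the difference ran from −1.12 to −0.74 for the ratio Cd8b1 to Cd8a, −0.41 to 0.11 for the ratio Trdc to Trac, 0.66 to 1.28 for the ratio Gzma to Cd3e, 0.59 to 1.11 for the ratio Ccl5 to Cd3e and 0.97 to 1.26 for the ratio Cd3e to Ptprc. Over all tested genes, calls numbered 209 higher and 467 lower (30.9% higher). With upper-quartile scaling these were 422 and 484 (46.6%), without mitochondrial and ribosomal sequence 220 and 825 (21.1%), and without Erbb3-FF mice 5 and 6 83 and 368 (18.4%). Calls were few with a B cell covariate (22 and 29) and without Erbb3-FF mice 1, 2 and 3 (14 and 21). Litter A alone gave 4 and 2, and litter B alone 6 and 9.

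Mice carry the same numbers in both genotypes, but mouse 3 is of different litters, and the deviations of same-numbered mice correlated by 0.152, 0.074, 0.114, 0.357, 0.24 and 0.167 for numbers 1 to 6, so the numbers were not taken to pair the mice. With mouse number as a replicate block in place of litter, 8 members were higher by genotype, and with the block beside litter 0 were higher by genotype and 0 in litter B. Over all tested genes, 217 were called higher by genotype with the block in place of litter and 68 with the block beside litter. A same-numbered mouse was the best match for 2 of the 6 numbers. With TPM alone the depth of each library is unknown, and members near 1 TPM are measured less surely than Gzma or Ccl5. TPM did not rank the members by reads: the authors' baseMean was 41.3 for Trdc, under the filter, and 15.6 for Xcl1, which was tested.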
